A study of Mus musculus with 24 samples.

Results

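The genes described here are 10 that write, erase or guide DNA methylation in mouse cells: Dnmt1, Uhrf1, Dnmt3a, Dnmt3b, Dnmt3l, Tet1, Tet2, Tet3, Zfp57 and Trim28. They were chosen by symbol, each was a single entry of the expression table of 23119 genes, and all 10 were among the 12105 genes tested (mean of at least 1 FPKM, a level scaled to transcript length and sequencing depth). RNA was measured in 24 libraries from JB4/EI7HZ2, a female mouse embryonic stem cell (mESC) line from a JF1 mother and a B6 father, either wild type (WT) or SmcHD1-mutant (KO). The KO line was made by CRISPR–Cas9 cutting in the part of Smchd1 that encodes the ATPase domain, and each genotype was 1 line, so the mutation and any other difference of the 2 lines cannot be told apart. Each genotype was sampled, with 3 replicates, as mESCs grown in serum with 2i and LIF, G418 and zeocin, as day 7 and as day 9 cells of an aggregate culture directed toward neurectoderm, and as neural stem cells (NSCs). NSCs came from a separate, longer protocol with FGF2 and EGF, so they were not the successors of day 9 cells, and stage and culture conditions cannot be told apart. The NSC media also held G418 and zeocin. The study describes the 3 replicates of a group as biologically independent, and p-values measure the spread between them within 1 line per genotype.

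DNA methylation at CpG sites is copied at each replication by DNMT1, which UHRF1 brings to hemimethylated DNA. DNMT3A and DNMT3B set new methylation, and DNMT3L, which has no enzymatic activity, binds and stimulates them in germ cells and early embryonic cells. TET1, TET2 and TET3 oxidize 5-methylcytosine, the first step of active removal, and ZFP57 binds methylated imprinting control regions and recruits TRIM28 (KAP1), a corepressor through which imprints keep their methylation in early embryos. MEK and GSK3 inhibition (2i) is known to lower methylation of mESCs. SMCHD1 is a noncanonical SMC protein of the inactive X chromosome, and its loss is known to reduce methylation of CpG islands on that chromosome. RNA levels alone were measured here, not methylation or protein.

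Smchd1 itself was listed at 13 to 13.9 FPKM in WT mESCs against 1.82 to 2.97 in KO mESCs, and KO libraries were below WT libraries at each of the 4 stages, with log2 fold changes from -2.41 at day 7 to -1.96 in NSCs (limma, adjusted p at most 2.81e-09). The 8 listed pluripotency genes summed to 2614 to 3163 FPKM in mESCs and 6.55 to 12.6 FPKM in NSCs, where the 6 listed neural stem cell genes summed to 3722 to 6714 FPKM. Relative read depth, recovered from the steps of low values, ranged from 0.811 to 1.15 between libraries. WT NSCs replicate 1 stood apart from the other WT NSC libraries in 12 listed proliferation genes, which summed to 1198 FPKM there against 664 and 824 in replicates 2 and 3. In these bulk samples, fewer cells of a type and less RNA per cell cannot be told apart.

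Promoter sequences are shown for 4 genes, namely Dnmt1 and Uhrf1, the pair that maintains methylation, which held the searched letters, and Dnmt3l and Zfp57, the 2 genes with calls between KO and WT. Each window runs from 250 bases before to 50 bases after a RefSeq start (GRCm38.p6) and was the start with the most CpG sites where a gene has several. Capitals mark the letters TTTCCCGC, TTTCGCGC, TTTGCCGC or TTTGGCGC on either strand, forms of the E2F site found at genes of the S phase; matches may overlap other motifs, and the letters were chosen with the sequences and results known. The Dnmt1 window lies at chr9:20952574-20952873, minus strand, Uhrf1 at chr17:56304063-56304362, plus strand, Dnmt3l at chr10:78042037-78042336, plus strand, and Zfp57 at chr17:37002275-37002574, plus strand.
Dnmt1: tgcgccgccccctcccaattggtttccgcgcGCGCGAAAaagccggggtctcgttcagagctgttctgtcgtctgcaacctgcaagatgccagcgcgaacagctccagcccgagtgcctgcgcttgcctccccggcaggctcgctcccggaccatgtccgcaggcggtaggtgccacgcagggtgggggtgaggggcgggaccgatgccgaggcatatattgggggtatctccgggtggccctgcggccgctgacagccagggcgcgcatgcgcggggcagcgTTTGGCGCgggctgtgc
Uhrf1: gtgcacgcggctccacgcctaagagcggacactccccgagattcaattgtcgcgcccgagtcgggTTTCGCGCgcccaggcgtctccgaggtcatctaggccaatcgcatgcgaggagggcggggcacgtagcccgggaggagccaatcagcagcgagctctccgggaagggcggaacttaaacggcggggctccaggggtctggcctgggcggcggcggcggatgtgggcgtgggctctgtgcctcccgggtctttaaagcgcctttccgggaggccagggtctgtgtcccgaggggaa
Dnmt3l: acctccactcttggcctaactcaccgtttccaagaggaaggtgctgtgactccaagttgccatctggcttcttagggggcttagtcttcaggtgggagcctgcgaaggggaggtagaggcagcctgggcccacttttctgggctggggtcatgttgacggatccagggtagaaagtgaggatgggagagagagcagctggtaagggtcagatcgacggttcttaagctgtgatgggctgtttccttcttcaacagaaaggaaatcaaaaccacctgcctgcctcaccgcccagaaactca
Zfp57: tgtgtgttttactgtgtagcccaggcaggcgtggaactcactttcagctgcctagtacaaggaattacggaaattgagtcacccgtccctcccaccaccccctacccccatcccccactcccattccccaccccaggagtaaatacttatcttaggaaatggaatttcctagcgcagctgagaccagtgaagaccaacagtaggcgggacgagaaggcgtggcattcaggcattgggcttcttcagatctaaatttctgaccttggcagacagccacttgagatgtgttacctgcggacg

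The Dnmt1 window held TTTCGCGC on the minus strand and TTTGGCGC on the plus strand of the printed sequence, and the Uhrf1 window held TTTCGCGC on the plus strand. The other 8 windows held none of these letters, which were present in 2.39% of the 27025 genes in the promoter table by the same choice of start. CpG sites were most frequent in the Tet2 (57) and Dnmt3a (47) windows, and there were 33 each for Dnmt1 and Uhrf1, 30 for Dnmt3b, 23 for Trim28, 22 for Tet3 and 17 for Tet1. Zfp57, with 9, and Dnmt3l, with 6, were the CpG-poorest of the 10, beside a median of 8 over all genes of the table.

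Across stages, 9 of the 10 genes differed between WT NSCs and WT mESCs, 8 of them lower and Tet3 higher (limma, adjusted p under 0.05). Dnmt3l, Dnmt3b and Zfp57 fell most, and Dnmt3a did not pass. Stage changes were common among all genes tested: 75.2% passed between WT NSCs and WT mESCs, 36.9% higher and 38.3% lower, and the median log2 change was -1.74 for the 10 genes and -0.01 for all genes. At day 9, 8 of the 10 passed in WT, 1 higher and 7 lower (71.5% of all genes, 36.4% higher and 35.1% lower), and at day 7, 5 of 10, 1 higher and 4 lower (59.2%, 29.1% and 30.2%). In KO, 8 passed at day 7, 4 higher and 4 lower (61.3% of all genes, 29.5% higher and 31.8% lower), 8 at day 9, 1 higher and 7 lower (71.3%, 35.7% and 35.6%), and 9 in NSCs, 1 higher and 8 lower (76%, 37.7% and 38.2%). The summed FPKM of a library fell from a median of 769704 in WT mESCs to 552341 in WT NSCs. Scaling all libraries to the same sum raised the median log2 change of all genes to between 0.14 and 0.44 against mESCs, and for WT NSCs it turned the split of all calls from 4469 higher and 4632 lower to 5999 and 3062.

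**Figure D1:**
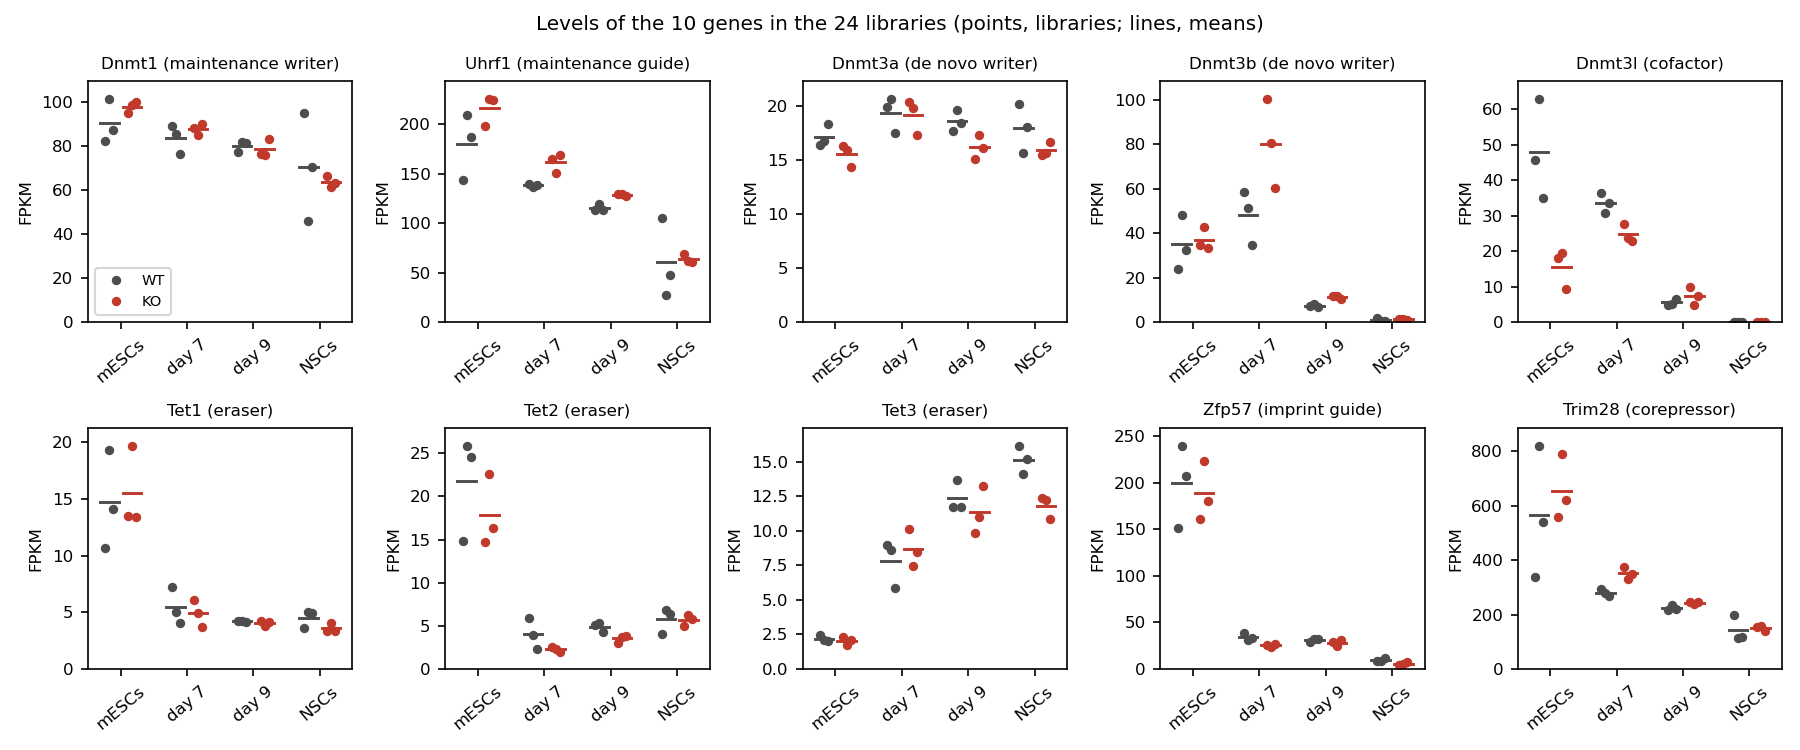
FPKM (y axis, linear from 0, own scale for each gene) of the 10 genes in the 24 libraries at the 4 stages (x axis), with WT in grey and KO in red. Points are libraries and lines are means of 3; Dnmt3l is at 0 in the 6 NSC libraries, and Tet3 is the gene whose mean is lowest in mESCs and highest in NSCs in both lines.

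Dnmt1 (chr9:20711650-20764332, mm9), the maintenance methyltransferase, changed little. It was listed at 82.6, 101 and 87.2 FPKM in the WT mESC libraries (replicates 1, 2 and 3) and at 95, 45.9 and 70.5 in WT NSCs. The WT NSC libraries spread more than those of any other stage, and replicate 1 lay within the mESC range. The log2 change in WT NSCs was -0.41 (SE 0.15, adjusted p = 0.0199), but scaled to the same sum it was 0.035 (adjusted p = 0.853), and the call was also lost in the compared groups alone and without WT mESCs replicate 2 or WT NSCs replicate 2. In KO, Dnmt1 was listed at 95, 98.9 and 100.3 FPKM in mESCs and 66.5, 61.5 and 63.2 in NSCs, which did not overlap, and the change was -0.61 (SE 0.15, adjusted p = 0.00104). It too was lost with the same-sum scaling (-0.10, adjusted p = 0.590).

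Uhrf1 (chr17:56442760-56462909), which reads hemimethylated DNA and recruits DNMT1, was listed at 144, 209 and 187 FPKM in WT mESCs, 139.6, 136 and 139 (day 7), 113, 119 and 114 (day 9) and 106, 27.6 and 47.9 in WT NSCs. Its mean fell 2.98-fold in WT NSCs and 3.39-fold in KO NSCs against mESCs, a log2 change of -1.75 (SE 0.27, adjusted p = 4.94e-06) in WT and -1.75 (SE 0.27, adjusted p = 4.98e-06) in KO. Without WT NSCs replicate 1 the WT fall was 4.77-fold, so that the order of the 2 lines depends on that library. At day 9 the WT change of -0.62 (SE 0.27, adjusted p = 0.0423) lost its call in 8 of 12 alternatives. The 12 listed proliferation genes, which do not include Uhrf1, summed to 1676 to 2251 FPKM in mESCs, 1367 to 1605 at day 7, 1194 to 1377 at day 9 and 664 to 1198 in NSCs. WT NSCs replicate 1, the NSC library with the highest sum, also had the highest Uhrf1, Dnmt1 and Trim28 of the 6 NSC libraries. The part of proliferation in these levels was not tested.

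**Figure D2:**
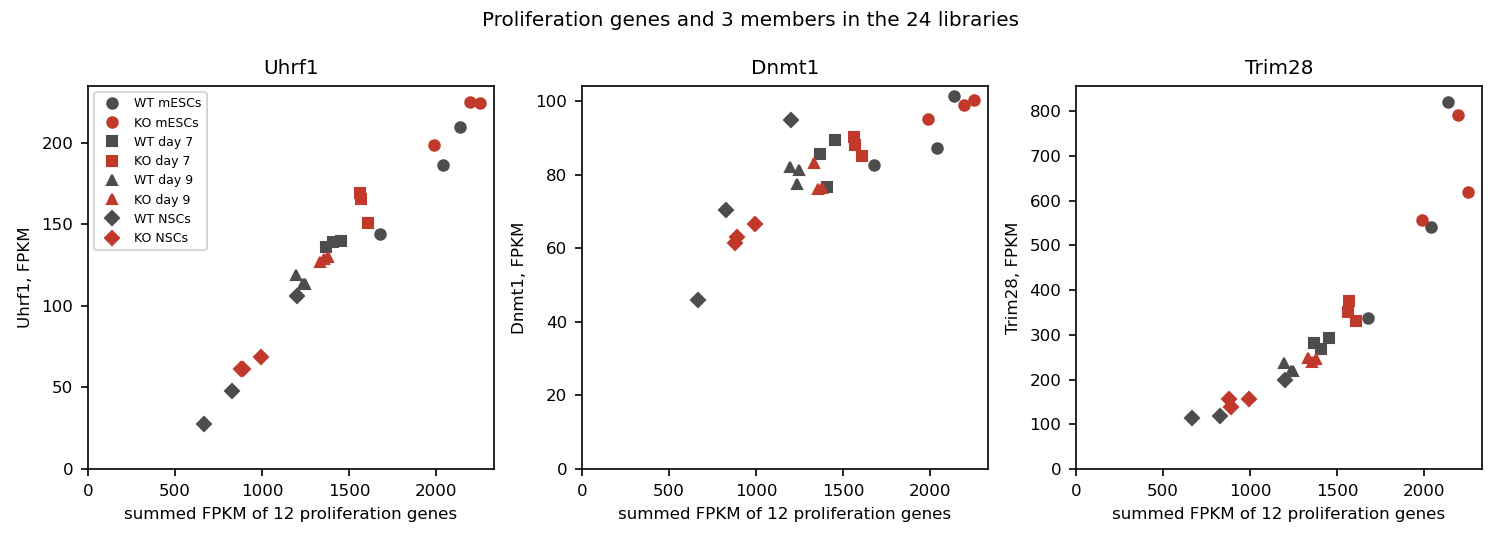
Summed FPKM of 12 proliferation genes (x axis) against the FPKM of Uhrf1, Dnmt1 and Trim28 (y axes), 1 point per library, with WT in grey, KO in red and a marker shape per stage. WT NSCs replicate 1, at 1198 on the x axis, lies beside the day 9 libraries for Uhrf1, away from WT NSCs replicates 2 and 3.

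Dnmt3a (chr12:3806980-3914443) and Dnmt3b (chr2:153475190-153513466), the enzymes that set new methylation, moved apart. Dnmt3a was between 14.4 and 20.6 FPKM in all 24 libraries, and its log2 change in WT NSCs was 0.05 (SE 0.10, adjusted p = 0.636). With the same-sum scaling, which shifted the median of all genes to 0.36 in that comparison, Dnmt3a changed by 0.48 (adjusted p = 0.00156). Dnmt3b was listed at 24.2, 48.4 and 32.7 FPKM in WT mESCs, 58.3, 51.4 and 34.9 (day 7), 7.19, 8.28 and 7.09 (day 9) and 2.17, 0.646 and 0.838 in NSCs. Day 7 libraries overlapped mESCs in WT, whereas all day 9 and NSC libraries were below both. In KO, Dnmt3b was listed at 34.9, 42.7 and 33.6 FPKM in mESCs and 100.1, 80.4 and 60.3 at day 7. These did not overlap, and it rose 2.17-fold, a log2 change of 1.07 (SE 0.24, adjusted p = 5.44e-04), with no call lost in 12 alternatives. In WT the day 7 change was 0.47 (SE 0.24, adjusted p = 0.0946). The difference between the 2 lines in this change, 0.60, did not pass (limma adjusted p = 0.629). Dnmt3a also rose at KO day 7, by 0.28 (SE 0.10, adjusted p = 0.0185), a call lost without KO mESCs replicate 3, KO day 7 replicate 1 or KO day 7 replicate 2. The fall of Dnmt3b in WT NSCs was 28.8-fold, a log2 change of -4.03 (SE 0.24, adjusted p = 1.44e-12). Without WT NSCs replicate 1 it was 47.3-fold.

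Between day 7 and day 9, a comparison added after the data were seen, 3 of the 10 genes passed in WT, 1 higher and 2 lower (33.8% of all genes, 18.5% higher and 15.3% lower), and 2 in KO, both lower (30.6%, 17.2% and 13.4%). Dnmt3b fell 6.41-fold in WT, a log2 change of -2.50 (SE 0.24, adjusted p = 5.54e-08), and 7.07-fold in KO, -2.69 (SE 0.24, adjusted p = 3.05e-08). Dnmt3l fell 5.98-fold in WT, -2.39 (SE 0.23, adjusted p = 4.86e-08), and 3.31-fold in KO, -1.65 (SE 0.23, adjusted p = 1.28e-05). The third gene in WT was Tet3, which rose by 0.62 (SE 0.14, adjusted p = 0.00186) on the log2 scale. The summed FPKM of Fgf5, Otx2 and Pou3f1, genes of the formative or primed epiblast, also went from 40.4 to 51.8 at day 7 to 15.3 to 22.2 at day 9 in WT, and from 82.0 to 108 to 28.4 to 40.1 in KO.

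Dnmt3l (chr10:77492776-77526360), the cofactor, was listed at 45.7, 62.7 and 35 FPKM in WT mESCs, 36.3, 30.8 and 33.7 at day 7 and 4.91, 5.26 and 6.69 at day 9, and at 0 in each of the 6 NSC libraries. In KO it was listed at 18.1, 19.5 and 9.48 (mESCs), 27.8, 23.8 and 22.9 at day 7 and 10.0, 4.91 and 7.55 at day 9. The 2 lines started in a different order: WT was highest in mESCs and KO at day 7, where the 3 KO libraries were above all KO mESC libraries. The day 7 change was -0.46 (SE 0.23, adjusted p = 0.0882) in WT and 0.69 (SE 0.23, adjusted p = 0.0126) in KO, and the latter was lost without KO mESCs replicate 3 or KO day 7 replicate 1. Day 9 against mESCs gave -2.85 (SE 0.23, adjusted p = 2.96e-10) in WT and -0.96 (SE 0.23, adjusted p = 7.50e-04) in KO. No fold is given for NSCs, where the gene is listed at 0.

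The 3 Tet genes exchanged places. Tet1 (chr10:62267318-62342762) was listed at 10.7, 19.3 and 14.1 FPKM in WT mESCs and 3.61, 5.0 and 4.95 in NSCs, and Tet2 (chr3:133126641-133207354) at 14.9, 25.9 and 24.5 and 4.10, 6.84 and 6.37. Tet3 (chr6:83312368-83391672) was listed at 2.44, 2.07 and 2.04 FPKM in WT mESCs, 8.96, 8.58 and 5.89 (day 7), 11.7, 13.7 and 11.8 (day 9) and 16.2, 14.1 and 15.2 in NSCs. NSC and mESC libraries did not overlap for any of the 3. In WT NSCs, Tet1 changed by -1.48 (SE 0.20, adjusted p = 8.28e-07) and Tet2 by -1.74 (SE 0.23, adjusted p = 6.27e-07) on the log2 scale, and both had already fallen at day 7, Tet1 by -1.28 (SE 0.20, adjusted p = 1.18e-05) and Tet2 by -2.21 (SE 0.23, adjusted p = 4.22e-08). Tet3 rose 6.95-fold in WT NSCs, 2.34 (SE 0.14, adjusted p = 1.75e-12), and 5.82-fold in KO NSCs, 2.08 (SE 0.14, adjusted p = 1.22e-11).

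Within a library, these levels can be set against each other, since FPKM is per length. Tet3 made up 6.03 ± 2.34% (SD, n = 3) of the summed FPKM of the 3 Tet genes in WT mESCs and 59.8 ± 6.99% in WT NSCs, Tet2 went from 56.1 ± 3.74% to 22.5 ± 4.76%, and Tet1 from 37.9 ± 3.09% to 17.7 ± 2.24%. Dnmt3a made up 34 ± 7.54% of Dnmt3a plus Dnmt3b in WT mESCs, 29.1 ± 3.97% (day 7), 71.2 ± 0.957% (day 9) and 94 ± 3.18% in NSCs. Thus Dnmt3b was the more abundant RNA of the 2 in mESCs and at day 7, and Dnmt3a at day 9 and in NSCs, in each of the 24 libraries.

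**Figure D3:**
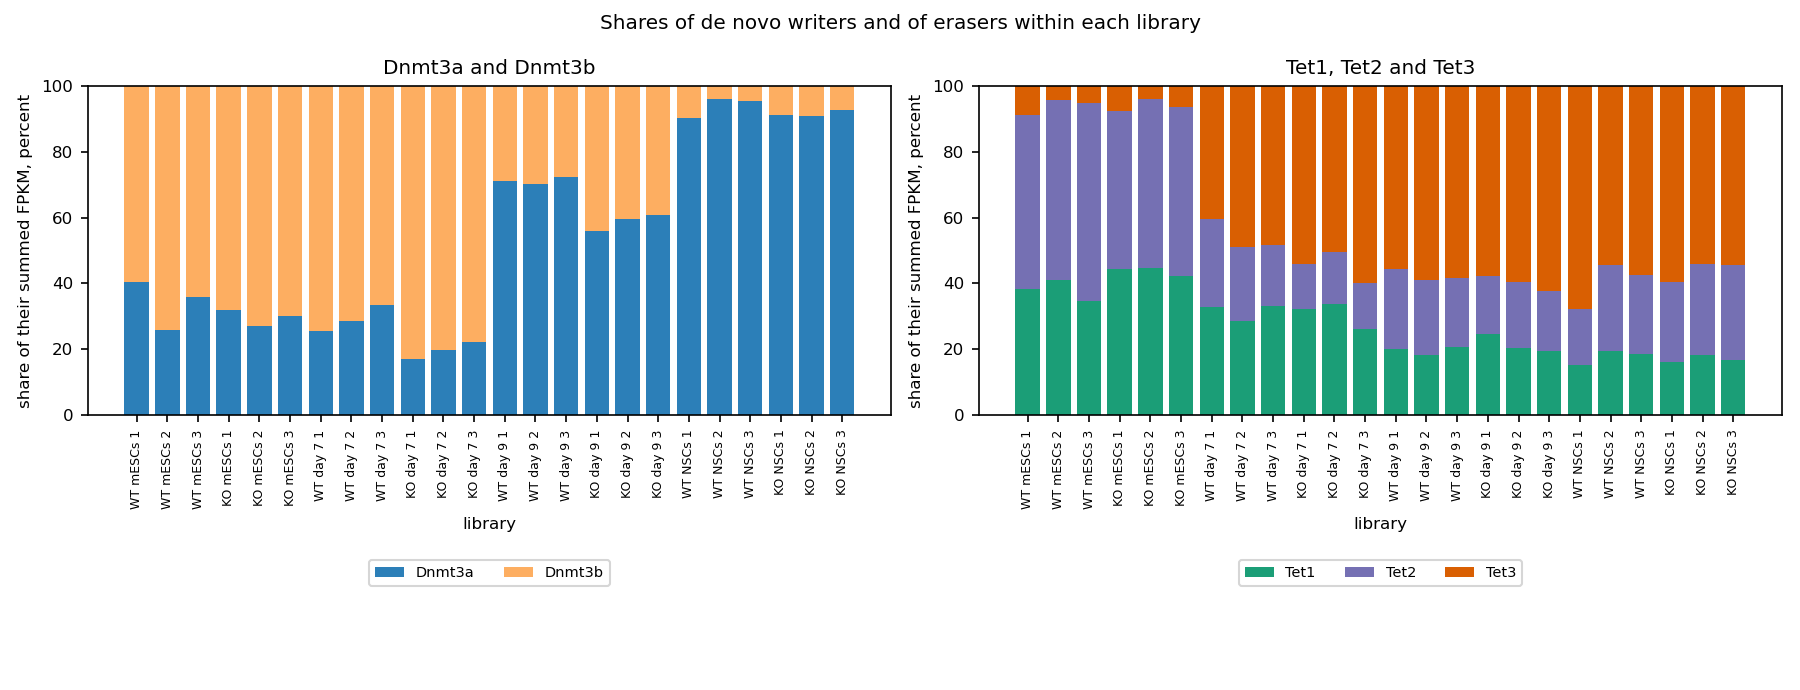
Share (percent, y axis) of Dnmt3a and Dnmt3b in their summed FPKM, left, and of Tet1, Tet2 and Tet3 in theirs, right, with 1 stacked bar per library (x axis). Dnmt3a takes the larger share in all day 9 and NSC libraries, and Tet3 goes from the smallest share in mESCs to the largest of the 3 in each day 7, day 9 and NSC library.

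Zfp57 (chr17:37138108-37147674), the imprint-binding zinc finger protein, was listed at 151, 239 and 207 FPKM in WT mESCs, 39, 31.2 and 32.8 (day 7), 28.9, 32.3 and 32.6 (day 9) and 7.98, 8.75 and 11.3 in NSCs. The fall was 5.80-fold by day 7, -2.48 (SE 0.17, adjusted p = 4.35e-11), and 21.3-fold in NSCs, -4.26 (SE 0.17, adjusted p = 1.14e-15), whereas day 7 and day 9 differed by -0.13 (SE 0.17, adjusted p = 0.594). In KO NSCs it was 33-fold below KO mESCs, -4.83 (SE 0.17, adjusted p = 1.31e-16). Its corepressor Trim28 (chr7:13609501-13616381) had the highest level of the 10 genes at every stage, with 337, 821 and 542 FPKM in WT mESCs and 199, 114 and 119 in WT NSCs. It fell 3.94-fold, -1.92 (SE 0.22, adjusted p = 7.19e-08). The ratio of Zfp57 to Trim28 was 0.374 ± 0.0790 (SD, n = 3) in WT mESCs and 0.0706 ± 0.0279 in WT NSCs.

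**Figure D4:**
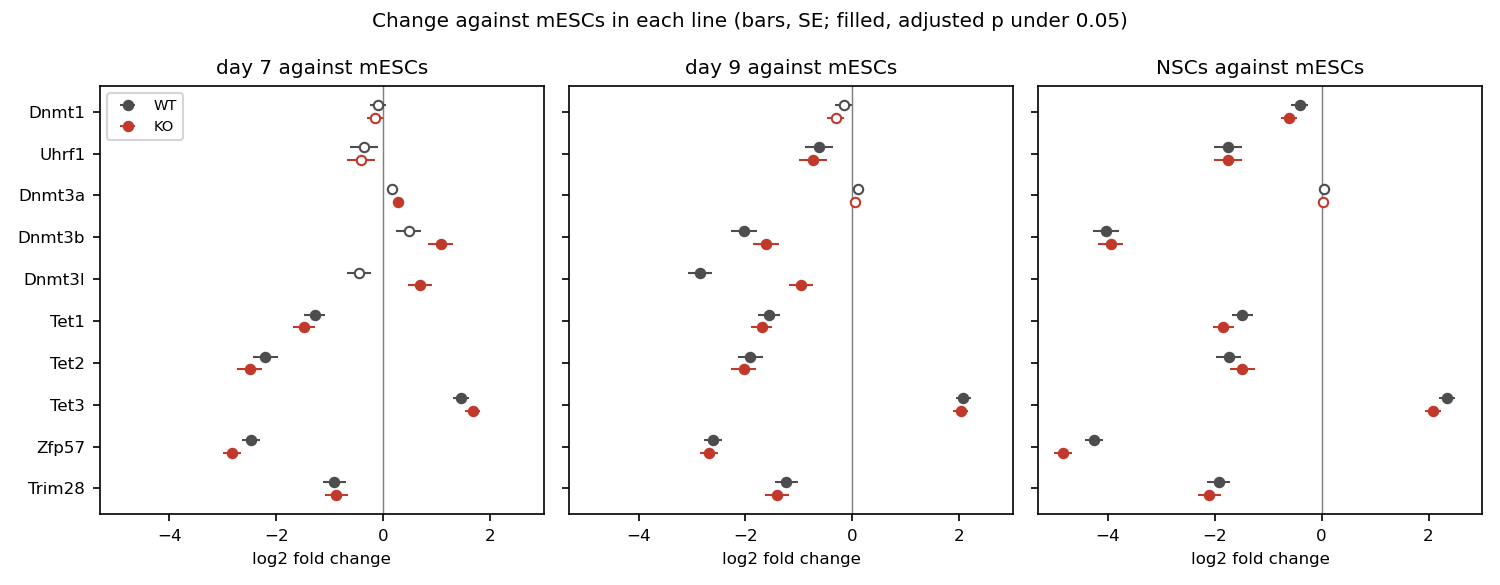
Log2 fold change against mESCs of the same line (x axis) for the 10 genes at day 7, day 9 and in NSCs, with WT in grey and KO in red; bars are SE, and filled points have a limma adjusted p under 0.05. Dnmt3l is left out for NSCs, where it is listed at 0, and Tet3 lies to the right in all 3 panels.

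Which of these genes differed in cells lacking SmcHD1 was asked within each stage. Dnmt3l in mESCs and Zfp57 in NSCs, both lower in KO, were the 2 of 40 gene and stage comparisons that passed. In mESCs that was 1 of 10, lower (0.529% of all genes passed, 0.413% lower), in NSCs 1 of 10, lower (6.02%, 2.54% higher and 3.48% lower), and none at the 2 neurectoderm days, beside 3.68% and 6.68% of all genes. At an unadjusted p under 0.05, 1 of the 10 passed in mESCs (Dnmt3l, beside 7.66% of all genes), 3 at day 7 (Zfp57, Dnmt3b and Tet2, beside 13.9%), 1 at day 9 (Dnmt3b, beside 17.3%) and 2 for NSCs (Zfp57 and Tet3, beside 18.1%). The median log2 change of the 10 genes lay between -0.04 and 0.03 at the 4 stages, and that of all genes between 0.00 and 0.01. In a fit with a block for replicate number, which the mESC and NSC libraries follow, 98 genes in place of 64 passed in mESCs and 1145 in place of 729 in NSCs, and the same 2 of the 10 did.

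**Figure D5:**
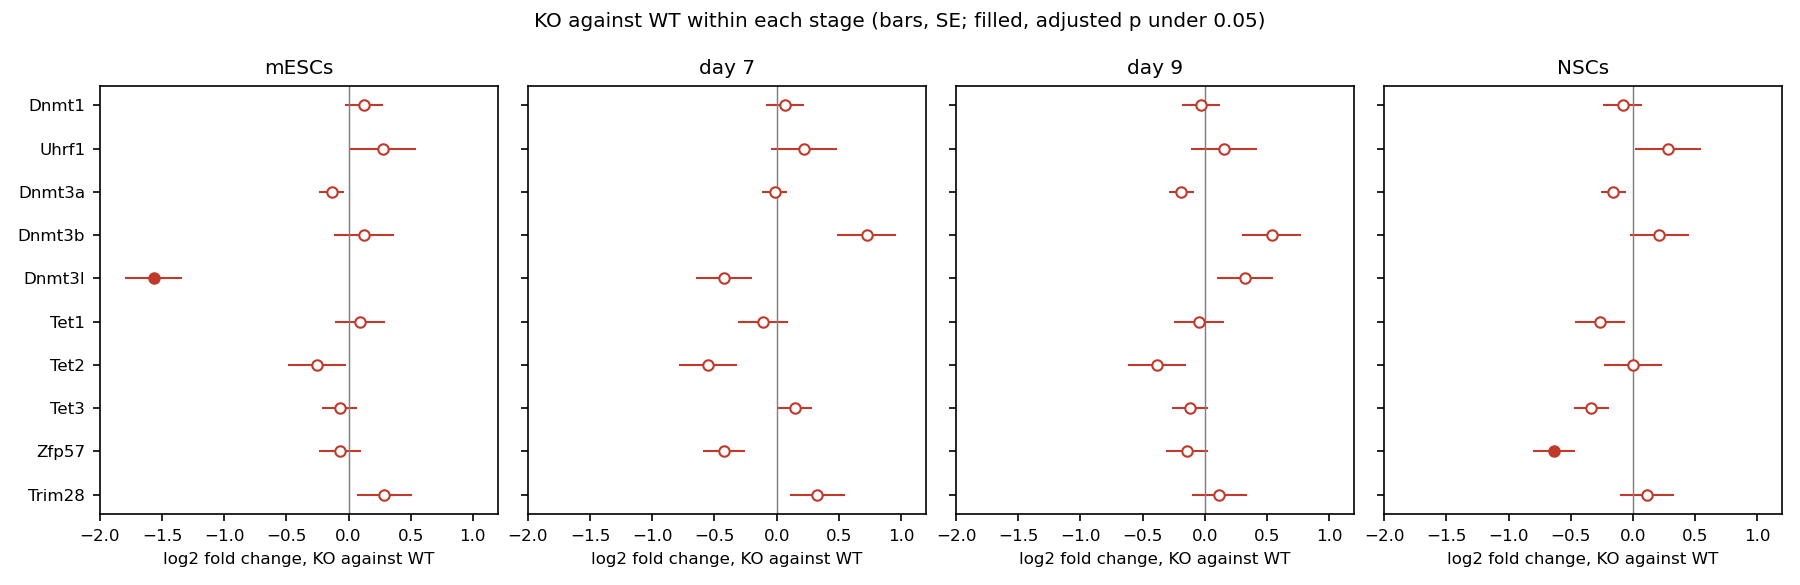
Log2 fold change of KO against WT (x axis) for the 10 genes, 1 panel for each of the 4 stages; bars are SE, and filled points have a limma adjusted p under 0.05. The filled points are Dnmt3l in mESCs, at -1.57, and Zfp57 in NSCs, at -0.63; Dnmt3l is left out for NSCs, where it is listed at 0 in both lines.

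In mESCs, Dnmt3l was 3.05-fold lower in KO, with 15.7 ± 5.42 FPKM (SD, n = 3) against 47.8 ± 14 in WT, and the highest KO library (19.5) was below the lowest WT library (35). The log2 change was -1.57 (SE 0.23, adjusted p = 0.00149), and leaving out each library in turn gave -1.77 to -1.26 with no call lost. In a fit of the 6 mESC libraries alone the adjusted p was 0.30, where 1 gene of all tested passed. The 8 listed pluripotency genes summed to 2614 to 3078 FPKM in WT and 2632 to 3163 in KO mESCs, and the 5 listed germ cell genes to 50.2 to 72.5 and 67.7 to 104.9. Most of the latter sum was Dazl, with a mean of 47.9 FPKM in WT and 70.6 in KO. The mean of Tex101 was also higher in KO (1.89 and 2.37), whereas the means of Ddx4, Mael and Sycp3 were lower.

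The KO effect on Dnmt3l differed by stage. At day 7 the KO libraries (22.9 to 27.8 FPKM) were still below the WT libraries (30.8 to 36.3), with a log2 change of -0.42 (SE 0.23, adjusted p = 0.449), and at day 9 the groups overlapped, with 0.32 (SE 0.23, adjusted p = 0.542). The day 9 effect minus the mESC effect was 1.89 (SE 0.32, limma adjusted p = 0.00119), the only gene of the 10 to pass, beside 2.68% of all genes. The day 7 effect minus the mESC effect was 1.15 (adjusted p = 0.0817), where none of the 10 passed (1.68% of all genes). Dnmt3l was at 0 in both lines of NSCs, so that the NSC difference of 1.57 (adjusted p = 0.0117) is the mESC effect with its sign changed. That was 1 of 10 genes there, beside 2.26% of all genes, and with the replicate block Zfp57 passed too (-0.56, adjusted p = 0.0291, against 0.265 without it).

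Zfp57 in NSCs was listed at 7.98, 8.75 and 11.3 FPKM in WT and 4.41, 5.42 and 7.28 in KO. All KO libraries were below all WT libraries, with means of 9.33 ± 1.72 and 5.70 ± 1.45 (SD, n = 3), a 1.64-fold difference. The log2 change was -0.63 (SE 0.17, adjusted p = 0.0253). The call was lost with the same-sum scaling, in the NSC libraries alone, and without WT NSCs replicate 3, KO NSCs replicate 1 or KO NSCs replicate 2, with adjusted p up to 0.291. The neural stem cell genes, which sum to 5229 to 6714 FPKM in WT and 3722 to 4599 in KO NSCs, were also lower in sum. That sum was mostly Fabp7 (means of 3862 and 2799.6 FPKM) and Vim (1384 and 947), whereas Olig2 (338 and 361) and Sox1 (1.87 and 3.42) had higher means in KO, and their part in the result was not tested. At day 7 Zfp57 was listed at 39, 31.2 and 32.8 FPKM in WT and 25.3, 23.7 and 26.8 in KO, which did not overlap either, with -0.42 (SE 0.17, adjusted p = 0.218). The mESC and day 9 changes were -0.07 (SE 0.17, adjusted p = 0.985) and -0.14 (SE 0.17, adjusted p = 0.771).

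Dnmt3b was listed at 58.3, 51.4 and 34.9 FPKM in WT and 100.1, 80.4 and 60.3 in KO at day 7, and at 7.19, 8.28 and 7.09 and 11.8, 11.8 and 10.4 at day 9. KO libraries were above WT libraries at both days, but neither log2 change passed, with 0.73 (SE 0.24, adjusted p = 0.109) and 0.54 (SE 0.24, adjusted p = 0.235). In the 6 day 9 libraries alone the adjusted p was 0.00991, in a fit where 1377 of all genes passed in place of 809. That was the only 1 of 12 alternatives in which Dnmt3b passed at day 9. Beside these Dnmt3b levels, the epiblast genes Fgf5, Otx2 and Pou3f1 summed to 40.4 to 51.8 FPKM in WT against 82.0 to 108 in KO at day 7. The difference in that sum was mostly Otx2, also a neural patterning gene, with means of 15 and 54.9, while Fgf5 was lower in the KO mean (9.29 and 4.98). At the same day the 5 endoderm genes summed to 61.0 to 152 against 1.09 to 4.58 and the 4 mesoderm genes to 61.2 to 161 against 3.64 to 5.43. At day 9 the 3 neuron genes with values, Tubb3, Stmn2 and Elavl3, summed to 488 to 535 FPKM in WT against 262 to 365 in KO, the endoderm genes to 28.2 to 52.2 against 4.70 to 14.4 and the mesoderm genes to 17.2 to 47.7 against 6.32 to 16.1, none of which overlapped. The fourth listed neuron gene, Dcx, is X-linked and reads as 0 because X reads were removed. The part of these genes in the Dnmt3b, Dnmt3l and Zfp57 values was not tested.

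Of the remaining genes, none passed between KO and WT at any stage. Uhrf1 was higher in the KO mean at all 4 stages, with log2 changes from 0.16 to 0.28, and its libraries did not overlap at day 7 (136 to 139.6 FPKM in WT, 151 to 169 in KO) and day 9 (113 to 119 and 127 to 129.7). The summed proliferation genes did not overlap either, with 1367 to 1450 FPKM in WT and 1562 to 1605 in KO at day 7 and 1194 to 1243 against 1331 to 1377 at day 9. Trim28 was higher in the KO mean at all 4 stages too, by 0.11 in NSCs to 0.33 at day 7 on the log2 scale, with 269 to 293 FPKM in WT and 332 to 377 in KO at day 7. In NSCs, Uhrf1 depended on single WT libraries. The change was 0.79 without WT NSCs replicate 1 (adjusted p = 0.00180) and -0.16 without WT NSCs replicate 2 (adjusted p = 0.735). The Trim28 change turned to -0.039 in mESCs without WT mESCs replicate 1 and to -0.031 in NSCs without WT NSCs replicate 2. Tet2 was lower in the KO mean at day 7, -0.55 (SE 0.23, adjusted p = 0.259), and day 9, -0.38 (SE 0.23, adjusted p = 0.440), and Tet3 in NSCs, -0.33 (SE 0.14, adjusted p = 0.20). Dnmt1 changed by at most 0.12 on the log2 scale in either direction, Dnmt3a by at most 0.19 and Tet1 by at most 0.27.

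Ordered by mean over the 8 groups, Dnmt3b was highest in KO day 7 cells (80.3 ± 19.9 FPKM, SD, n = 3), then in WT day 7 cells, KO mESCs and WT mESCs, whose libraries overlapped from each group to the next, then in KO and WT day 9 cells, each apart from its neighbours, and lowest in the NSCs of both lines, which overlapped. Dnmt3l ran from WT mESCs and WT day 7 cells, which overlapped, to KO day 7 cells, apart from both neighbours, and then to KO mESCs (15.7 ± 5.42), KO day 9 cells and WT day 9 cells, which overlapped from each group to the next. Zfp57 was highest in mESCs of both lines, which overlapped, followed by the 4 groups of day 7 and day 9 cells from 34.3 ± 4.09 down to 25.3 ± 1.58, each overlapping the next, and then by WT and KO NSCs, which were apart.

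Non-overlapping libraries of KO and WT were found for 2 of the 10 genes in mESCs (Dnmt3a and Dnmt3l), 5 at day 7 (Uhrf1, Dnmt3b, Dnmt3l, Zfp57 and Trim28), 5 at day 9 (Uhrf1, Dnmt3a, Dnmt3b, Tet2 and Trim28) and 2 in NSCs (Tet3 and Zfp57). Over all genes tested the share was 11% in mESCs, 24% (day 7), 32.3% (day 9) and 16.7% (NSCs). With 3 libraries against 3, the 2-sided exact permutation test cannot go below p = 0.1, and over the 39 comparisons with a value above 0 the smallest adjusted exact p was 0.279.

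Shares and ratios within a library were compared in the same way, in 27 comparisons, of which 13 had no overlap between lines (exact permutation p = 0.1 each, the smallest possible, 0.208 adjusted). These quantities share genes, and no share over all genes stands beside that count. The ratio of Dnmt3l to Dnmt3a plus Dnmt3b was 0.685 to 1.13 in WT and 0.197 to 0.354 in KO mESCs, and 0.428 to 0.643 and 0.231 to 0.295 at day 7. At day 9 the lines overlapped and the KO mean was higher (0.275 against 0.216). The Dnmt3a share of Dnmt3a plus Dnmt3b was 25.4 to 33.3% in WT and 16.9 to 22.3% in KO at day 7, and 70.3 to 72.2% and 56 to 60.7% at day 9. Neither difference passed after adjustment. In mESCs and NSCs this share overlapped, with lower KO means (29.7% against 34%, and 91.6% against 94%). The ratio of Zfp57 to Trim28 was 0.292 to 0.449 in WT and 0.283 to 0.290 in KO mESCs, 0.111 to 0.133 and 0.0673 to 0.0766 at day 7, and 0.132 to 0.148 and 0.104 to 0.127 at day 9. It overlapped in NSCs (0.0401 to 0.0947 and 0.0283 to 0.0523). The Tet2 share of the 3 Tet genes was below WT in each KO library in mESCs, at day 7 (18.6 to 26.6% and 13.6 to 15.7%) and at day 9 (21.2 to 24.3% and 17.8 to 20.2%). In NSCs the lines overlapped and the KO mean was higher (27% against 22.5%). The Tet1 share was 34.7 to 40.9% in WT and 42.2 to 44.7% in KO mESCs, and the Tet3 share 40.6 to 48.9% and 50.6 to 59.8% at day 7. The ratio of Uhrf1 to Dnmt1 was 1.44 ± 0.0353 (SD, n = 3) in WT and 1.64 ± 0.0982 in KO at day 9, where the lines did not overlap, and it overlapped at the other stages. Compared by replicate number, KO was higher in 3 of 3 mESC pairs for the Tet1 share and for Uhrf1 to Dnmt1, and lower in 3 of 3 for the Tet2 share, Dnmt3l to Dnmt3a plus Dnmt3b, and Zfp57 to Trim28. In NSCs the Tet2 share was higher in KO in 3 of 3 pairs, and the Tet3 share and Zfp57 to Trim28 were lower in 3 of 3. The other 5 paired comparisons had pairs of both signs. With 3 pairs the exact paired permutation test cannot go below p = 0.25 (2-sided).

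Dnmt3l shares its deposited locus with Aire, a transcription factor gene of the thymus, and reads of 2 overlapping genes may not be told apart, since the use of strand in counting is not given in the sources used here. Over the 8 group means of log2(FPKM + 1), the 2 genes most like Dnmt3l of all genes tested were Aire (Pearson r = 0.990) and Icosl (r = 0.990), which encodes a ligand of T cell costimulation and whose locus begins 5753 bases after that of Dnmt3l ends. The 8 means share libraries and stages, and the correlation is a description. Aire was listed at 2.83 to 5.0 FPKM in WT mESCs and 1.77 to 2.88 in KO mESCs, which overlapped, and at 0 in all NSCs. Its KO change in mESCs was -0.43 (adjusted p = 0.786), and that of Icosl, 3.76 ± 1.13 against 2.40 ± 0.720 FPKM (SD, n = 3), was -0.48 (adjusted p = 0.653). Pfkl, a glycolytic enzyme gene before Dnmt3l, changed by 0.06 (adjusted p = 0.993) and D10Jhu81e, beyond Icosl, by -0.03 (adjusted p = 0.999). No tested neighbour within 100000 bases passed in KO mESCs, and whether their changes differed from that of Dnmt3l was not tested.

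The pair most like each other gene over the 8 group means was U2af1 and Polr2k for Dnmt1 (r = 0.994 and 0.993), Bub1b, of the mitotic checkpoint, and Nxt1 for Uhrf1 (0.996 and 0.995), Foxh1, a Nodal pathway transcription factor, and Ttll12 for Dnmt3b (0.995 and 0.994), and 3010026O09Rik and Unc5b for Dnmt3a (0.952 and 0.951). For the erasers it was Sp1 and Pop5 for Tet1 (0.999 and 0.997), Btbd10 and Kat2b for Tet2 (0.992 and 0.990), and Nsg1, a neuronal endosome protein gene, and Irs1 for Tet3 (both 0.998). Zfp57 was most like Cep192 and 1200016B10Rik (0.998 and 0.997) and Trim28 most like Nsfl1c and Bard1 (0.997 and 0.996). Among the 10 genes, the strongest opposite pattern was that of Tet1 and Tet3 (r = -0.973).

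Other genes of DNA methylation were followed in a list of 54, of which 50 were tested. Between KO and WT, none passed in mESCs or at day 7, beside 0.529% and 3.68% of all genes. At day 9, 2 were higher and none lower, beside 2.58% of all genes higher and 497 of 12105 lower. In NSCs, 1 was higher and 2 were lower (2.54% and 3.48% of all genes). The share of the list in NSCs was near that of all genes. The 2 genes at day 9 were Mat2b, a subunit of the enzyme that makes the methyl donor, with 0.38 (SE 0.11, adjusted p = 0.0329), and Dppa4, a chromatin factor of pluripotent cells, with 0.67 (SE 0.17, adjusted p = 0.0185). Those in NSCs were the stress-induced Gadd45b, with 1.21 (SE 0.34, adjusted p = 0.0370), and the DNA glycosylase genes Neil3, with -0.54 (SE 0.15, adjusted p = 0.0331), and Neil1, with -0.77 (SE 0.22, adjusted p = 0.0372). With the same-sum scaling neither day 9 gene passed, and 2 genes were higher and none lower in NSCs, beside 354 and 299 of all genes.

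Against WT mESCs, 14 of the 50 were higher and 14 lower at WT day 7, beside 29.1% and 30.2% of all genes. At day 9 these counts were 21 and 19 (36.4% and 35.1% of all genes), and for NSCs 16 and 23 (36.9% and 38.3%), with a median log2 change of -0.25 in NSCs. The largest falls in NSCs were those of Dppa3, whose protein keeps UHRF1 from chromatin, Dppa4 and Dppa2, with means of 119, 105 and 77.6 FPKM in WT mESCs against 0, 0.0539 and 0 in WT NSCs. The largest rises were those of Gadd45g, 3.88 (SE 0.41, adjusted p = 6.98e-08), of Mbd2, a reader of methylated CpG sites, 1.87 (SE 0.14, adjusted p = 5.32e-11), and of Zbtb4, a zinc finger gene whose protein binds methylated DNA, 1.53 (SE 0.17, adjusted p = 6.44e-08). The 7 partners of maintenance, such as Hells and Pcna, had 5 lower and none higher, and the 6 readers tested had 4 higher and 2 lower, counts of a few genes for which no group test was made.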

How the data were processed

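RNA was measured by stranded, poly(A)-selected single-end sequencing. Per the methods and the submitters' processing notes, reads were trimmed with Trim Galore 0.6.6 and aligned with TopHat2 2.1.1 to mm9, reads of rRNA and of the X chromosome were removed, and FPKM values were deposited from Cuffdiff of Cufflinks. Its normalization and use of strand are not given in the sources used here. No counts were used, but 96.7% of 31400 low values were whole multiples of a library's step (within 5%), which gave relative depth. Of 36 FPKM columns, 12 were not used, and 1024 X and Y genes were at 0. The deposited status columns, of unit other, were used to leave out 1 gene with a failed estimate.

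From the deposited FPKM, log2(FPKM + 1) of the 12105 genes with a mean of at least 1 FPKM was tested with limma 3.58.1 (R 4.3.3; trend and robust) in 1 fit of all 24 libraries and 8 groups, with Benjamini-Hochberg adjustment over all genes and a threshold of 0.05. A fold change is on the log2(FPKM + 1) scale, which understates low genes, and "fold" alone is a ratio of mean FPKM. The script was tested on simulated data. Alternatives were a pseudocount of 0.1, no filter, same-sum and median-ratio scaling, the compared groups alone, a replicate block and leaving out each library. Replicate numbers were taken as pairing KO and WT in mESCs and NSCs, where deviations from the group means correlated in each pair (r from 0.141 to 0.435), and not at day 7 or day 9. No 2 libraries were identical. The genes, the pathway and marker lists and the promoter letters were chosen with earlier results of these data known. Besides Smchd1 and the 10 genes, the text names the list genes that passed between KO and WT, the 3 largest rises and falls in WT NSCs, the 2 genes most like each member, and overlapping genes; the other neighbours of Dnmt3l, the pathway genes Hells and Pcna, and single marker genes were named after their values were seen.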

Additional observations from a re-analysis of the deposited data

Results flagged for a closer look

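The KO effect on Dnmt3l differed from that in mESCs by 1.89 on the log2 scale at day 9 and by 1.57 in NSCs (limma interaction terms, adjusted p = 0.00119 and 0.0117). At day 9 the KO effect itself was 0.32 and did not pass (limma adjusted p = 0.542), with overlapping libraries. The call of its difference from the mESC effect held in all 18 alternatives (adjusted p from 0.000294 to 0.0296). In NSCs the gene was at 0 in all 6 libraries, so the difference there repeats the mESC effect, and it was lost in the fit of the compared groups alone (adjusted p = 0.101; range over 18 alternatives 0.00267 to 0.101).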

How the results depend on the processing

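Of 1980 values of the 10 genes under the alternatives, 1869 kept both direction and side of the threshold. At 3 libraries per group, small changes are beyond reach here: 1 library decides the sign of many changes near 0, levels are FPKM without counts, and genes at 0 allow no fold. The cause of the changes below was not tested.

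Counts of all genes that passed between KO and WT were 164 in mESCs and 1221 at day 9 with no filter, 42 in mESCs with the same-sum scaling, and 1 in mESCs, 1377 at day 9 and 58 in NSCs in the compared groups alone. With that fit, 0 of the 10 genes passed in mESCs, 1 at day 9 and 0 in NSCs. Between day 9 and day 7, 5 of the 10 passed in WT and 5 in KO, beside 5016 and 4964 of all 12105 genes. With the same-sum scaling 0 of the 10 passed in NSCs, beside 653 of all genes. Of the pathway list 0 were higher at day 9, beside 204 of all genes. In NSCs 2 of the list were higher and 0 lower, beside 354 and 299 of all genes. For the differences of KO effects from mESCs, 165 genes passed at day 9 with a pseudocount of 0.1 and 537 with no filter, and 57 genes and 0 of the 10 passed in NSCs with the compared groups alone.

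With the replicate block, 98 genes passed in mESCs, 641 at day 7 and 1145 in NSCs. At day 7, where the numbers do not pair the libraries, 2 of the 10 passed (Dnmt3b and Zfp57, adjusted p = 0.0167 each). The differences from the mESC effect had 330 genes and 1 of the 10 at day 7 (Dnmt3l, 0.0156) and 504 genes and 2 of the 10 in NSCs. Against mESCs the block ended the call of Uhrf1 at WT day 9 (0.0587), and it changed no other call of the 10 genes.

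Signs turned with the same-sum scaling for Dnmt1 against mESCs (0.13 at WT day 7, 0.21 at WT day 9, 0.035 in WT NSCs and 0.064 at KO day 7), from WT day 7 to day 9 for Dnmt1 (0.076), Dnmt3a (0.079) and Zfp57 (0.0079), and for Dnmt3a in the NSC minus mESC effect (0.045). Tet2 in NSCs turned to -0.000532 with the median-ratio scaling. Dnmt3a passed against mESCs with the same-sum scaling in all 6 comparisons.

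Leaving out each library in turn, genes that passed between KO and WT ranged over 20 to 112 (mESCs), 273 to 521 (day 7), 449 to 752 (day 9) and 406 to 1352 in NSCs, with 0 to 2 of the 10 in NSCs. For the differences from the mESC effect they ranged over 119 to 253 (day 7), 181 to 360 (day 9) and 146 to 607 in NSCs, with 0 to 1 of the 10 at day 7. The highest count in NSCs, 1352, and in the NSC difference, 607, came without WT NSCs replicate 1; the lowest in mESCs, 20, without KO mESCs replicate 3, and the highest there, 112, without WT mESCs replicate 2. Log2 changes whose sign depended on 1 library are given as lowest to highest. For KO against WT, mESCs, these were Dnmt3b -0.11 to 0.38, Tet1 -0.11 to 0.29, Trim28 -0.039 to 0.60 and Zfp57 -0.25 to 0.075. For KO against WT, day 7, these were Dnmt3a -0.081 to 0.055, Tet1 -0.27 to 0.087 and Tet3 -0.021 to 0.24. For KO against WT, NSCs, these were Dnmt1 -0.36 to 0.16, Tet2 -0.19 to 0.12, Uhrf1 -0.16 to 0.79 and Trim28 -0.031 to 0.37. For WT NSCs against WT mESCs, these were Dnmt3a -0.029 to 0.14. For KO NSCs against KO mESCs, these were Dnmt3a -0.018 to 0.066. For the day 7 minus mESC effect, these were Dnmt1 -0.14 to 0.0069, Uhrf1 -0.17 to 0.099 and Trim28 -0.28 to 0.37. For the day 9 minus mESC effect, these were Uhrf1 -0.24 to 0.032, Tet1 -0.34 to 0.057, Tet2 -0.27 to 0.11, Zfp57 -0.22 to 0.11, Trim28 -0.48 to 0.16 and Tet3 -0.15 to 0.040. For the NSC minus mESC effect, these were Dnmt3a -0.11 to 0.062, Trim28 -0.49 to 0.15, Uhrf1 -0.44 to 0.51, Dnmt3b -0.17 to 0.38 and Dnmt1 -0.48 to 0.039.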
